A study of Mus musculus with 3 samples.

Results

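The miR-148 and miR-152 family comprises miR-148a-3p, miR-148b-3p and miR-152-3p, 3 microRNAs (miRNAs) that carry an identical seed. Their levels were followed in hearts of wild type C57BL/6 mice that were 1 day (P1), 7 days (P7) or 28 days old (P28). The labels name no transgene or treatment, and there was 1 small RNA library for each age. The tissue is heart in the labels and cardiac ventricles in the study's text. The members were taken by accession, as MIMAT0000516 for miR-148a-3p, MIMAT0000580 for miR-148b-3p and MIMAT0000162 for miR-152-3p. The rule itself used no values, but earlier results of these data were known when the members were chosen. They are 3 of the 2049 rows of the count table, and each has 1 row. The study profiled miRNAs at these ages to look for candidate regulators of heart growth after birth. How many hearts went into each library is not given in the sources used here.

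A miRNA is loaded into an Argonaute protein and pairs with messenger RNAs mainly through its seed, the stretch near its 5′ end, after which the message is destabilized or translated less. miRNAs with the same seed therefore share most of their predicted targets, while the bases downstream of the seed tell them apart. The miR-148 and miR-152 family is known for acting on the message of Dnmt1, the methyltransferase that maintains DNA methylation when cells divide, and miR-148a is also known as an abundant miRNA of the liver.

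The mature sequences are shown because all later comparisons rest on what they share and where they differ. They are from RefSeq (GRCm38.p6), 5′ to 3′, with the seed (bases 2 to 8) in capitals.
miR-148a-3p: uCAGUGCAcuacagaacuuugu
miR-148b-3p: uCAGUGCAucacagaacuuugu
miR-152-3p: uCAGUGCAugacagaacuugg
The seed was identical in the 3 members. Of 1738 mature miRNA entries in the RefSeq table, these 3 alone had it. Over the 21 positions that could be compared, 18 were the same in all 3. Positions were counted from 1 at the 5′ end, with the base of the first-named miRNA written first. From miR-148a-3p to miR-148b-3p the differences were C9U and U10C. From miR-148a-3p to miR-152-3p they were C9U, U10G and U20G, and from miR-148b-3p to miR-152-3p they were C10G and U20G. miR-152-3p is 21 bases long and the other two are 22. The central bases just after the seed thus carry most of what separates the members.

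A further 7 mature miRNAs in the RefSeq table begin 1 base later within the same stretch, so that their seeds overlap with that of the family by 6 bases. miR-130a-3p and miR-301a-3p are shown as examples, with their own bases 2 to 8 in capitals.
miR-130a-3p: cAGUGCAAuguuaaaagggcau
miR-301a-3p: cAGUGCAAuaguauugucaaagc
By these bases they belong to another seed family. Their levels were not analysed here, since the count table gives accessions without names and the names of only the 3 members were at hand.

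The 3 genes lie on different chromosomes. By the RefSeq coordinates, miR-148a-3p is at chr6:51269829-51269850 on the minus strand, miR-148b-3p at chr15:103285185-103285206 on the plus strand and miR-152-3p at chr11:96850439-96850459 on the plus strand. In the GENCODE M21 annotation of the same build, the hairpin of Mir148b fell within Copz1 on the same strand, and was intronic in both transcripts that span it. The hairpin of Mir152 was intronic in the 1 spanning transcript of Copz2, also on the same strand. Copz1 and Copz2 encode the zeta subunits of the coatomer, the coat of vesicles that move between Golgi and endoplasmic reticulum, so these members sit in introns of paralogous genes. The Mir148a hairpin overlapped no other annotated gene, and the nearest protein-coding gene, Nfe2l3, was 162760 bases away. Messenger RNAs of the host genes were not measured in these libraries.

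The match to the seed in a message reads TGCACTG, in DNA letters. It is shown in Dnmt1, the best known target of the family. The match was found in 3 annotated transcripts of Dnmt1, each with a 3′ untranslated region of 312 bases. It begins at base 23 of that region, at chr9:20907492-20907498 on the minus strand (GRCm38, GENCODE M21). It is given here with its flanks (chr9:20907484-20907506), the match in capitals.
Dnmt1: gccccacgTGCACTGatgttttt
The base after the match is A, which completes the strongest class of seed site. The 3′ untranslated regions of Dnmt3a and Dnmt3b held no such letters. The search covered the message strand, and 2775 of 20996 genes with an annotated 3′ untranslated region (13.2%) held the match, while 783 (3.73%) held it followed by A. A match is a description of the letters and does not show that the miRNA acts there.

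The libraries held between 1944237 and 2842526 counts. Levels are given as CPM, counts scaled so that a library sums to 1000000, with 95% Wilson intervals. Each value comes from 1 library, so variation between hearts is unknown and the intervals cover counting error only. With many reads, small differences can part such intervals, and how many of all entries had intervals apart was not counted. A count of 3 reads corresponds to between 1.06 and 1.54 CPM, below the level of any member in any library. The mature miRNAs are 21 or 22 bases long, so levels were not divided by length. Ligation and amplification during library preparation can favour some sequences over others, and this was not tested.

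miR-148a-3p was the most abundant member at every age and had its highest level in the P7 library. The P1 library held 11654 of its reads, or 5994 CPM (5887 to 6104). The P7 library held 26810 reads, or 10873 CPM (10745 to 11003), and the P28 library held 13365 reads, or 4702 CPM (4623 to 4782). None of these intervals overlapped. Ranks were taken among all rows of the table, with stem-loop rows and repeated rows included. miR-148a-3p ranked 24 in the P1 library, 19 in the P7 library and 24 in the P28 library.

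miR-152-3p had intermediate levels that differed little between the ages. Its 3329 reads in the P1 library gave 1712 CPM (1655 to 1771). Its 4504 reads in the P7 library gave 1827 CPM (1774 to 1881), and its 4174 reads in the P28 library gave 1468 CPM (1425 to 1514). P7 was again the highest and P28 the lowest, and the intervals of the 3 libraries did not overlap. Those of P1 and P7 almost touched, and the level at P7 was 1.07-fold that at P1. Its rank was between 46 and 48 in all 3 libraries.

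miR-148b-3p was the least abundant. It had 627 reads in the P1 library, which is 322 CPM (298 to 349). In the P7 library it had 882 reads, which is 358 CPM (335 to 382), and in the P28 library 579 reads, which is 204 CPM (188 to 221). The intervals of P1 and P7 overlapped, and that of P28 was below both. It ranked between 105 and 115 among all rows.

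**Figure D1:**
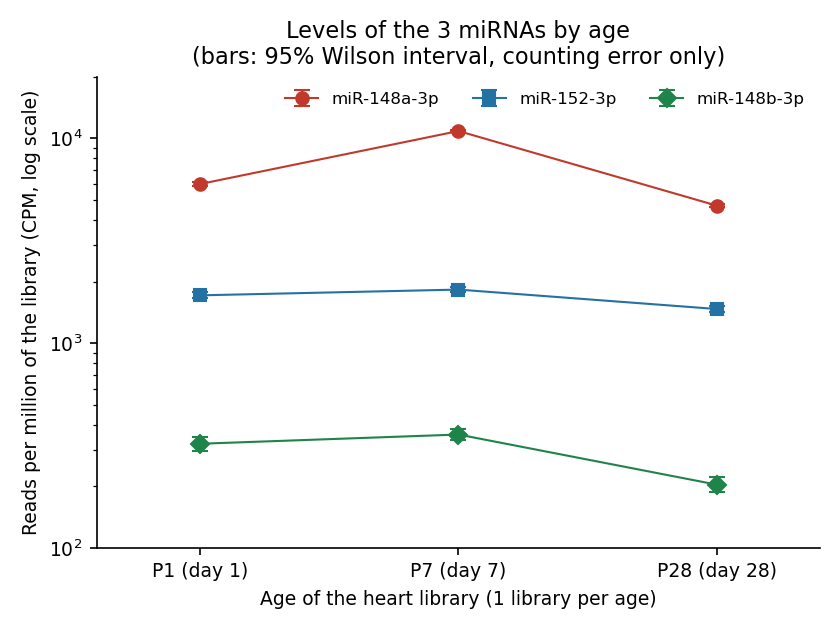
Level of each member in CPM (log scale) against age, with 1 library per age and 95% Wilson intervals as bars. miR-148a-3p went from 5994 CPM (P1) to 10873 (P7) and 4702 (P28), while miR-152-3p stayed between 1468 and 1827 CPM and miR-148b-3p between 204 and 358 CPM.

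The order miR-148a-3p, miR-152-3p, miR-148b-3p was the same in the 3 libraries, and the intervals of neighbours in this order were well apart at each age. Together the 3 members took 0.803% of the P1 counts (0.790 to 0.816), 1.31% of the P7 counts (1.29 to 1.32) and 0.637% of the P28 counts (0.628 to 0.647). Without miR-148a-3p, the other two summed to 2035 CPM in the P1 library, 2184 CPM in the P7 library and 1672 CPM in the P28 library. The P7 maximum of the summed family was thus mostly made of miR-148a-3p. All 3 members were highest at P7 and lowest at P28 when scaled by library totals. P7 as the highest and P28 as the lowest age was found for 23.3% of all entries. P28 was the lowest age for 61.8% and P7 the highest for 36.3% of the 317 entries that averaged 10 CPM or more over the libraries, which are the rows compared below and include the 3 members.

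The first comparison asked how the family differed between P1 and P7. Log2 ratios were computed with a pseudocount of 0.5 reads and carry 95% Clopper-Pearson intervals for counting error. miR-148a-3p was higher at P7, with a log2 ratio of 0.86 (0.83 to 0.89), which is 1.81-fold. It fell short of the 2-fold difference that was used as a call, and 85.8% of the entries had a lower ratio. miR-148b-3p had a log2 ratio of 0.15 (0.00018 to 0.30), and miR-152-3p one of 0.09 (0.03 to 0.16), against a median of 0.02 over all entries. These 2 members were within the middle range of all entries, whose quartiles were -0.53 and 0.55. At 2-fold, 0 of the 3 members were called higher and 0 lower, against 10.4% of all entries higher and 11.7% lower.

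The second comparison was of P28 with P7. miR-148a-3p was lower at P28, with a log2 ratio of -1.21 (-1.24 to -1.18), which is 2.31-fold. miR-148b-3p had a log2 ratio of -0.81 (-0.97 to -0.66), which is 1.76-fold lower, and miR-152-3p one of -0.31 (-0.38 to -0.25), which is 1.24-fold lower. With the 2-fold call, 1 of the 3 members was lower and 0 were higher. Over all entries 39.1% were called lower and 3.15% higher, and 237 of the 317 entries had a ratio below 0, as the members did. The median over all entries was -0.64. Relative to that median, the log2 ratio was -0.57 for miR-148a-3p, -0.17 for miR-148b-3p and 0.32 for miR-152-3p.

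The third comparison was of P28 with P1. miR-148a-3p had a log2 ratio of -0.35 (-0.39 to -0.31), miR-148b-3p of -0.66 (-0.83 to -0.50) and miR-152-3p of -0.22 (-0.29 to -0.16). None reached 2-fold in either direction, against 12.3% of entries called higher and 40.7% called lower. The median of all entries was again -0.64, and 58.0%, 48.9% and 62.5% of the entries had a lower ratio than miR-148a-3p, miR-148b-3p and miR-152-3p.

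**Figure D2:**
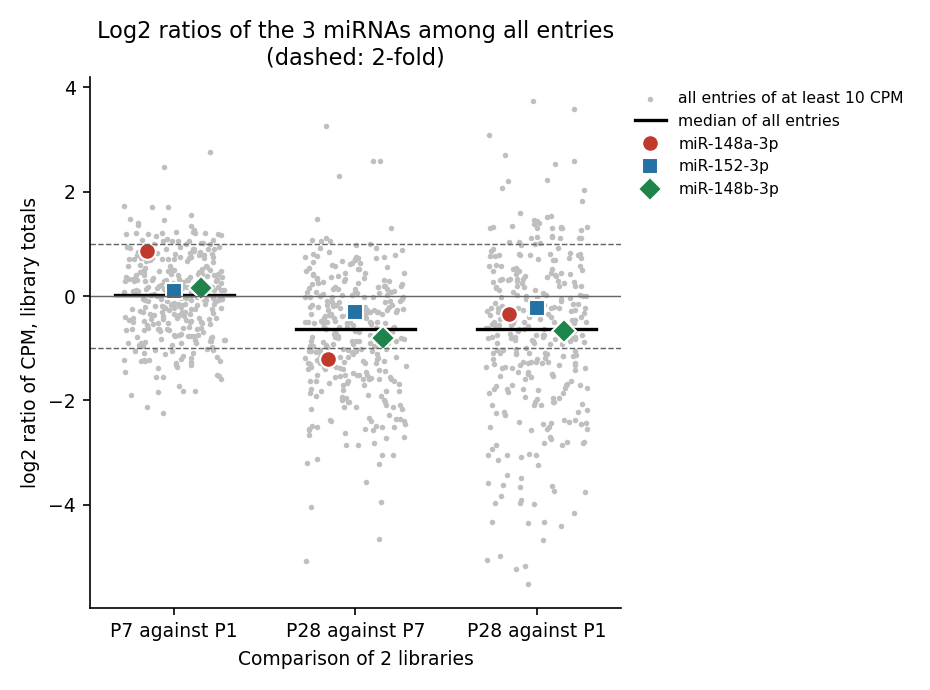
Log2 ratio of CPM for the 317 entries of at least 10 CPM (grey points, spread sideways for visibility) and the 3 members (coloured) in each comparison of 2 libraries. miR-148a-3p lies at 0.86 for P7 against P1, above the median of 0.02, and at -1.21 for P28 against P7, beyond the 2-fold line and below the median of -0.64.

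The comparisons with P28 depended on how the libraries were scaled. Relative to library totals, the typical entry took less of the P28 library than of the others, and TMM scaling and DESeq2 size factors, which place the typical entry near no change, moved the median by about this amount. At P28 against P7, the log2 ratio of miR-148a-3p was -0.65 under TMM and -0.56 under DESeq2 size factors, so it had the same sign but was no longer past 2-fold. miR-152-3p changed sign, from -0.31 by library totals to 0.24 and 0.33. miR-148b-3p was at -0.26 and -0.16. Of the entries called in this comparison, the higher ones were 7.46% by library totals, 35.7% with TMM and 42.2% with DESeq2 size factors.

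At P28 against P1, miR-148a-3p and miR-152-3p both changed sign with the scaling. Under TMM their log2 ratios were 0.27 and 0.40, and under DESeq2 size factors 0.28 and 0.41. miR-148b-3p was near 0, at -0.04 and -0.03. The share of called entries that were higher was 23.2% by library totals and 47.8% under either of these scalings. The direction of both at P28 against P1 therefore depended on the scaling. At P7 against P1 the scaling mattered less, and miR-148a-3p was between 0.84 and 1.01 under all 4 scalings. The total without the 10 most abundant rows gave the value of 1.01, at which miR-148a-3p passed the 2-fold call, and raised the share of called entries that were higher from 47.1% to 62.2%.

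**Figure D3:**
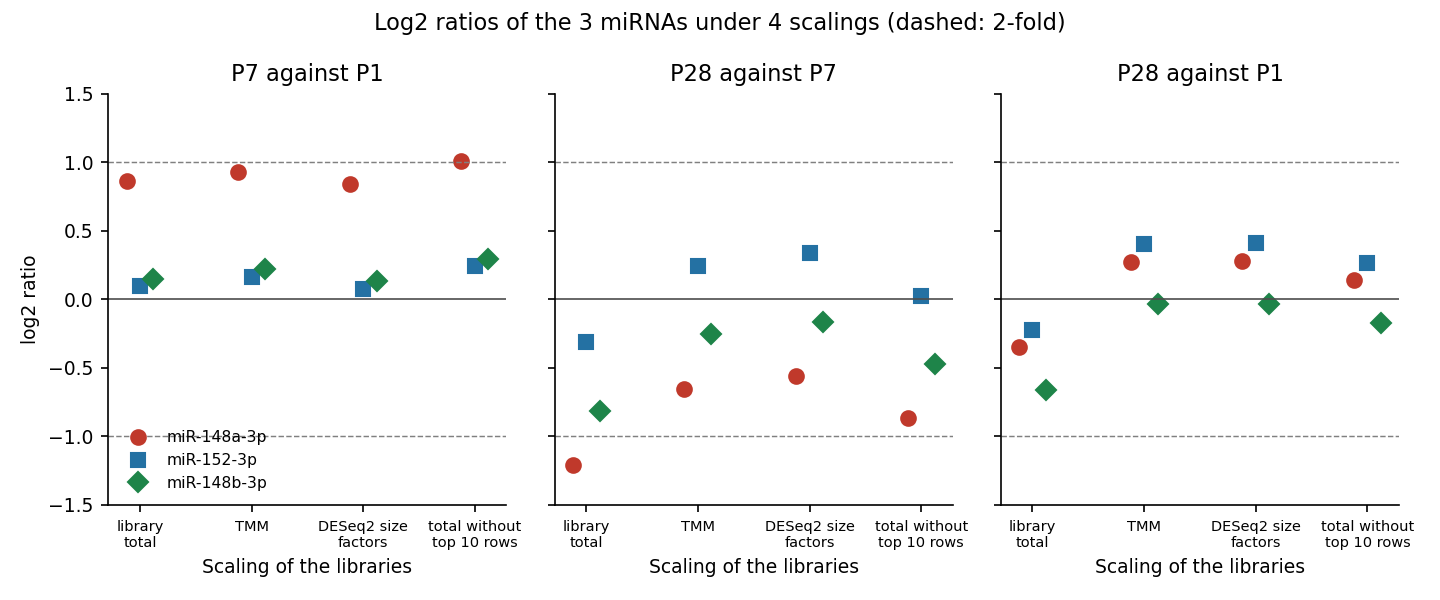
Log2 ratio of each member (points) in the 3 comparisons of libraries when counts were scaled by library totals, TMM, DESeq2 size factors or the total without the 10 most abundant rows. At P28 against P7 miR-148a-3p goes from -1.21 to between -0.87 and -0.56 and miR-152-3p from -0.31 to between 0.03 and 0.33, while the distance between the members is the same under every scaling.

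Ratios between the members of one library do not depend on the scaling, and these showed a shift in composition. Of the reads of the family, miR-148a-3p made up 74.7% in the P1 library (95% Wilson interval 74.0 to 75.3), 83.3% in the P7 library (82.9 to 83.7) and 73.8% in the P28 library (73.1 to 74.4). The share of miR-152-3p was 21.3% in the P1 library (20.7 to 22.0), 14.0% in the P7 library (13.6 to 14.4) and 23.0% in the P28 library (22.4 to 23.7). That of miR-148b-3p was 4.02% (3.72 to 4.34), then 2.74% (2.57 to 2.92) and 3.20% (2.95 to 3.46). miR-148a-3p thus had its largest part of the family in the P7 library, and both others had their smallest there.

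For each read of miR-152-3p the P1 library had 3.50 reads of miR-148a-3p (95% Clopper-Pearson interval 3.37 to 3.64), the P7 library 5.95 (5.77 to 6.14) and the P28 library 3.20 (3.09 to 3.32). Between P1 and P7, miR-148a-3p gained on miR-152-3p by 0.77 on the log2 scale (95% interval 0.69 to 0.84), and between P7 and P28 the difference of their log2 ratios was -0.89 (-0.96 to -0.83). From P1 to P28 these nearly cancelled, with a difference of -0.13 (-0.20 to -0.05).

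For each read of miR-148b-3p, the P1 library had 18.6 reads of miR-148a-3p (17.2 to 20.2), the P7 library 30.4 (28.4 to 32.5) and the P28 library 23.1 (21.2 to 25.1). The difference of their log2 ratios was 0.71 at P7 against P1 (0.56 to 0.86) and -0.40 at P28 against P7 (-0.55 to -0.24). The P28 value stayed above that of P1, by 0.31 (0.15 to 0.48).

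The ratio of miR-152-3p to miR-148b-3p differed little between P1 and P7 and was higher at P28. At P7 against P1 both members lay between the quartiles of all entries, -0.53 and 0.55. The reads of miR-152-3p for each read of miR-148b-3p numbered 5.31 in the P1 library (4.87 to 5.79), 5.11 in the P7 library (4.75 to 5.49) and 7.21 in the P28 library (6.61 to 7.88). The difference of their log2 ratios was -0.06 at P7 against P1, with an interval from -0.22 to 0.11 that includes 0. At P28 against P7 it was 0.50 (0.33 to 0.66). In bulk tissue, a change in the number of cells that make a miRNA and a change in its level per cell cannot be told apart.

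**Figure D4:**
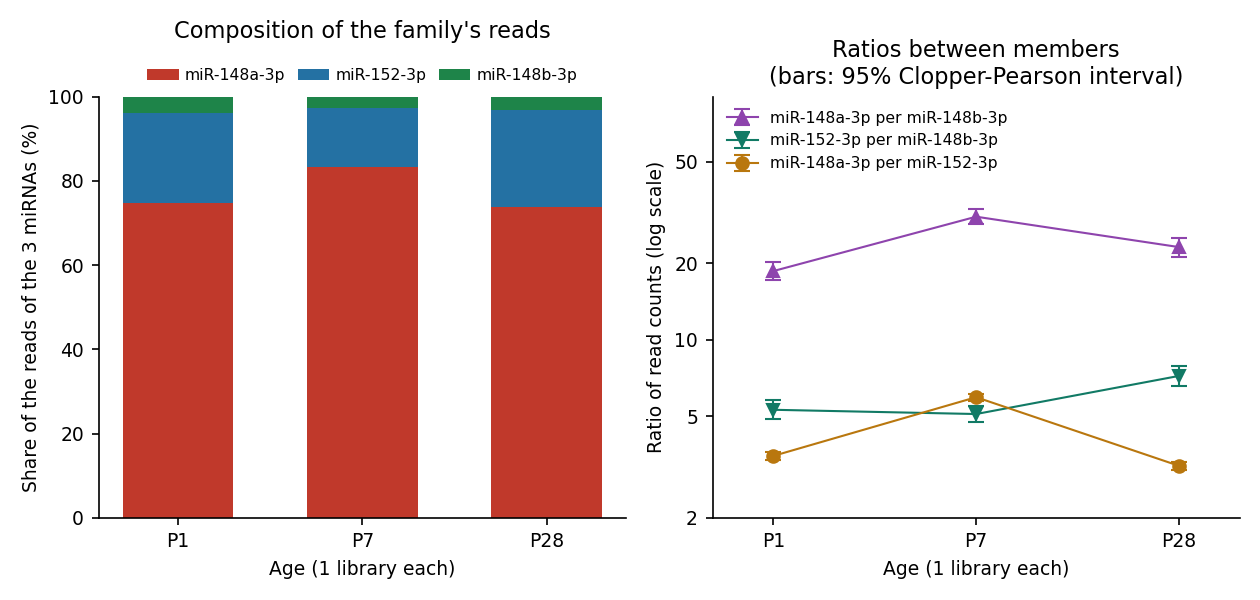
Left, share of each member in the reads of the 3 members (percent) by age. Right, ratio of read counts between members (log scale) by age, with 95% Clopper-Pearson intervals as bars, 1 library per age. The share of miR-148a-3p is 74.7% (P1), 83.3% (P7) and 73.8% (P28), and the ratio of miR-152-3p to miR-148b-3p is 5.31, 5.11 and 7.21.

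Near-identical sequences can exchange reads when mismatches are allowed in alignment, and how such reads were assigned is not given in the sources used here. miR-148a-3p and miR-148b-3p differ at 2 of 22 positions, and miR-148a-3p had between 18.6 and 30.4 times as many reads. A small part of the miR-148a-3p reads, if placed at miR-148b-3p, would be a large part of the count of the latter. miR-152-3p and miR-148b-3p also differ at 2 of the 21 positions compared, and miR-152-3p had between 5.11 and 7.21 times as many reads. Their ratio is open to the same limit. Exchange of reads was not tested for either pair. The counts themselves were not copies of each other or of another row. No other row came within 1% of a member in every library, and the closest row of the table differed by up to 32.3% for miR-148a-3p, 12.8% for miR-148b-3p and 14.4% for miR-152-3p in the library where it differed most.

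The order of miR-148a-3p by library totals, highest at P7 and lowest at P28, was held by 23.3% of the 317 entries. A limit of 1.5-fold was added after the values were seen. By library totals, miR-148a-3p was at least 1.5-fold higher at P7 than in both other libraries, as were 7.26% of the 317 entries, while miR-148b-3p and miR-152-3p were not. It also met this limit under TMM, where 15 entries did, and with the total without the 10 most abundant rows, where 18 did. It missed it under DESeq2 size factors, where 13 entries met it.

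To find the entries most like each member, the distance between the pair of log2 ratios (P7 against P1 and P28 against P7) was taken over the 167 entries that averaged 100 CPM or more, as a description over 3 libraries. The entry nearest to miR-148a-3p was MIMAT0003485, at a distance of 0.21, with 96.7 CPM in the P1 library, 202 CPM in the P7 library and 82.7 CPM in the P28 library. The entry nearest to miR-148b-3p was MIMAT0004667, at 0.087, with 1540, 1762 and 1056 CPM in the same order. The entry nearest to miR-152-3p was MIMAT0000140, at 0.16, with 446, 475 and 341 CPM in that order. The next 2 entries lay at 0.32 and 0.43 for miR-148a-3p, 0.14 and 0.15 for miR-148b-3p, and 0.18 and 0.20 for miR-152-3p. Of the 3 members, miR-148a-3p thus had its nearest entries at the largest distances. Such distances were not computed for the other entries. The lists depended on the limit of 100 CPM, and 4 of their 12 places were kept when entries from 10 CPM upward were admitted. No member was among the 3 entries nearest to another member. For the sum of the members, with the members themselves left out, the nearest was MIMAT0004651 at 0.30.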

How the data were processed

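Small RNA libraries from total RNA of hearts at P1, P7 and P28 (1 each) were prepared with a NEBNext kit, per the labels. The submitters' processing notes name bcl2fastq, TopHat and mm10. For its sequencing as a whole, the study's methods give TopHat2 for alignment to mm10 and Bioconductor packages for counting. Versions, the miRBase release, use of strand and treatment of reads with several placements are not given in the sources used here. The deposited values are raw read counts made by the authors, without normalization.

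Columns were matched to ages by the code that opens their names. Counts were divided by library totals, and 317 rows that averaged 10 CPM or more were compared. Of the 2049 rows, 2035 are of mature miRNAs and 14 of stem-loops, and the mature rows cover 1900 accessions. Totals and ranks used all rows, so some reads can be counted in more than 1 row. The alternative of 1 entry per mature accession summed the rows of an accession. It left out stem-loop rows and 11 accessions whose counts repeat those of another, which gave 283 entries. With 1 library per age there were no replicates, so no test was run and no p-value is given. A call is a difference of at least 2-fold in CPM, with 0.5 reads added to each count. Ratios between libraries carry Clopper-Pearson intervals, shares and levels Wilson intervals, and differences of log2 ratios normal intervals, all at 95% and for counting error only. Reads without molecular identifiers are not independent molecules. The functions for log2 ratios and their Clopper-Pearson intervals were tested on simulated data, and the Wilson and normal intervals were not.

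The members and lists were chosen with earlier results of these data known. Names were available for the 3 members alone, so the planned seed ranking, 5p arms, marker miRNAs of heart and other cell types, and lists of other miRNAs were not analysed here, and the tissue label was not checked against markers. Named entries were to be the members and the 3 entries nearest to each and to their sum. As accessions have no names here, only the nearest are printed. Sequences and coordinates are from RefSeq (GRCm38.p6), in which 3 of 3 members matched by name, and GENCODE M21, both of the build used by the study. Alternatives were TMM (edgeR 4.0.16), DESeq2 1.42.0 size factors, the total without the 10 most abundant rows, a pseudocount of 5 reads, 1 entry per mature accession, thresholds of 1.5-fold and 4-fold, and filters at 1 CPM, 100 CPM or none. Analyses used R 4.3.3, Python 3.11.15, numpy 2.4.6, pandas 2.3.3, scipy 1.17.1 and matplotlib 3.10.9.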

Additional observations from a re-analysis of the deposited data

How the results depend on the processing

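No paired analysis was possible because no age had a replicate, and no replicate could be left out. Over the 5 alternatives in which a log2 ratio can move, 48 of the 60 values of the members and their sum had the same sign as by library totals and 12 did not. The 12 were miR-148a-3p, miR-152-3p and the sum at P28 against P1 and miR-152-3p at P28 against P7, each under the 3 other scalings. Each scaling adds one amount to every ratio of a comparison, so the differences between members could not change under it. The median of all entries moved by about this amount, from -0.64 to -0.08 under TMM and 0.01 under DESeq2 size factors at P28 against P7, and from -0.64 to -0.01 under both at P28 against P1.

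At P7 against P1, TMM gave log2 ratios of 0.93 for miR-148a-3p, 0.16 for miR-152-3p and 0.77 for the sum. The total without the 10 most abundant rows gave 1.01, 0.24 and 0.85. With 1 entry per mature accession, miR-148a-3p was at 0.81 and the sum at 0.65.

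At P28 against P7, the values in the order miR-148a-3p, miR-148b-3p, miR-152-3p and sum were -0.65, -0.26, 0.24 and -0.48 under TMM. They were -0.56, -0.16, 0.33 and -0.39 under DESeq2 size factors and -0.87, -0.47, 0.026 and -0.69 with the total without the 10 rows. With 1 entry per mature accession, miR-148a-3p was at -1.15 and the sum at -0.98.

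At P28 against P1, the same order gave 0.27, -0.038, 0.40 and 0.29 under TMM, 0.28, -0.033, 0.41 and 0.30 under DESeq2 size factors, and 0.14, -0.18, 0.27 and 0.15 with the total without the 10 rows.

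The number of members past the threshold changed as follows. At P7 against P1, 1 was higher with the total without the 10 rows and 1 at 1.5-fold, against 0. Of all 317 entries, 46 and 75 were higher in these settings, against 33. At P28 against P7, 0 were lower under TMM, DESeq2 size factors, the total without the 10 rows and 4-fold, and 2 at 1.5-fold, against 1. Of all 317 entries, 72, 63, 92 and 45 were lower in these settings in the same order, and 166 at 1.5-fold, against 124. At P28 against P1, 1 was lower at 1.5-fold, against 0. Of all 317 entries, 161 were lower at 1.5-fold, against 129. A pseudocount of 5 reads and the filters changed none of these numbers of members.

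The lists of nearest entries have 12 places, 3 for each member and the sum. In 4 of these places the entry was still among the 3 nearest when entries from 10 CPM upward were admitted, which raises the number compared from 167 to 317. All 12 places were kept under TMM, which follows from its construction. Entries past 2-fold over the whole table, in the order higher and lower, were 40 and 72 under TMM at P28 against P7, against 10 and 124, and 76 and 83 at P28 against P1, against 39 and 129. The 5p arms and the seed ranking were not run. The limit of 1.5-fold at P7 and the 8-base site in Dnmt1 were chosen after the data were seen. The depth gave intervals narrower than 0.34 on the log2 scale for every ratio of a member, and these do not cover variation between hearts.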
